A study of Mus musculus with 18 samples.

Results

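The genes described here are 10 genes of endothelial cell junctions, receptors and secreted factors: Pecam1, Cdh5, Esam, Icam2, Emcn, Tek, Tie1, Robo4, Angpt1 and Egfl7. They were chosen by name, not by a measured value, but with earlier results of these data known. All 10 are among the 20321 genes of the deposited expected count table and the 20308 genes of the deposited TPM table (a level per transcript length, scaled to the depth of the library). RNA was sequenced from 18 libraries of mouse embryonic stem cells of the GFP-Bry line, in which green fluorescent protein in the Brachyury locus reports early mesoderm. Embryoid bodies were dissociated, and unsorted cells, E+F+ cells (surface Endoglin and Flk-1 both present) or E+F- cells (Endoglin present, Flk-1 absent) were left to reaggregate for 24 h with 10 µM IWR-1 or with its vehicle DMSO. The E+F+ and E+F- cells had been gated within the GFP-positive cells, so that both sorted populations shared expression of the Brachyury reporter at the time of the sort. Each of the 6 groups (unsorted, E+F+ and E+F-, each under DMSO and under IWR-1) has 3 libraries, numbered Set 1 to Set 3. All come from 1 reporter line, no allele or transgene other than the reporter is named, and the labels do not say whether the Sets are separate cultures, so that a p-value measures the spread between these libraries.

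Endothelial cells line blood vessels and hold to one another through adherens and tight junctions. VE-cadherin (Cdh5), PECAM-1 (Pecam1), ESAM (Esam) and ICAM-2 (Icam2) sit at these contacts, and endomucin (Emcn) is a sialomucin of the endothelial surface. Tie2 (Tek) and Tie1 are receptor tyrosine kinases, angiopoietin-1 (Angpt1) is the activating ligand of Tie2, and Robo4 is the vascular member of the Roundabout guidance receptors. Egfl7 is a secreted protein of the vessel wall whose gene also holds the microRNA miR-126. In the embryo, endothelial and first blood cells arise from Flk-1-positive mesoderm, and several of these genes, Pecam1 and Tek among them, are also used by early blood progenitors. IWR-1 stabilises Axin and so lowers canonical Wnt signalling.

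The libraries held between 19725500 and 26649600 expected counts, and 13826 genes passed the filter on low counts, 9 of the 10 among them. Emcn did not pass. On a principal component analysis, component 1 (48.7% of the variance) put the 6 E+F+ libraries at 1 end and the 6 E+F- libraries at the other, and component 2 (17.3%) set E+F- Set 3 apart from its own groups (-22.1 under DMSO and -45.9 under IWR-1, against 40.2 to 47.6 in Sets 1 and 2). Brachyury (T) was at 0.14 to 0.59 TPM in the E+F+ libraries and at 160.3 to 494 TPM in the E+F- libraries. Kdr, which encodes Flk-1, was lower in E+F+ than in E+F- libraries by a log2 fold change of -1.96 ± 0.59 under DMSO (edgeR adjusted p = 0.0235) and -1.72 ± 0.59 under IWR-1 (0.0457), the opposite order to the surface protein that named the populations 24 h earlier. Eng was at 4.41 to 7.50 TPM in E+F+ DMSO and 2.58 to 7.07 TPM in E+F- DMSO (adjusted p = 0.830). Under IWR-1 the Wnt feedback gene Axin2 fell in E+F- cells from 68.2 ± 11.1 to 20.02 ± 3.16 TPM (SD, n = 3 each, log2 fold change -1.67, adjusted p = 0.00285). Its mean went from 31.64 to 18.34 TPM in unsorted cells and from 12.84 to 8.3 TPM in E+F+ cells. Of 10 Wnt feedback genes, 4 were called lower under IWR-1 in E+F- cells, 1 in unsorted cells and 0 in E+F+ cells. Their median log2 fold changes were -0.62, -0.75 and -0.65 in the same order.

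Tek (GRCm38 chr4:94739289-94874976, plus strand) and Egfl7 (chr2:26580014-26593120, plus strand) are shown with Robo4 (chr9:37401897-37415115, plus strand) because the first pair were higher and Robo4 was lower in E+F+ cells. The stretches below end 1 base before an annotated start (for Egfl7, 1 of 3 in the RefSeq table) and come from RefSeq GRCm38.p6, where 5 of the 10 genes had an entry. Capitals mark GGAA, the core letters bound by ETS factors, or TTCC, the same letters on the other strand.
Tek, chr4:94739039-94739288, plus strand: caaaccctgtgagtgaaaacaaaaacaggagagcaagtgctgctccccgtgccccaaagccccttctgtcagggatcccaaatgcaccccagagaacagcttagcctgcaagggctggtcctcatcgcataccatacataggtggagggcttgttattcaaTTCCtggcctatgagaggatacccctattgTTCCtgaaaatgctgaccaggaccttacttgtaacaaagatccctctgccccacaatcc
Egfl7, chr2:26583615-26583863, plus strand: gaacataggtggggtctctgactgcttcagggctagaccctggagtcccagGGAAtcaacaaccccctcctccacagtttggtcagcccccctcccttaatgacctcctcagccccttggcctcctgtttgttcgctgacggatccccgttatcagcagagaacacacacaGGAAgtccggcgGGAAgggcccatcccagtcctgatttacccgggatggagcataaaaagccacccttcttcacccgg
Robo4, chr9:37401722-37401896, plus strand: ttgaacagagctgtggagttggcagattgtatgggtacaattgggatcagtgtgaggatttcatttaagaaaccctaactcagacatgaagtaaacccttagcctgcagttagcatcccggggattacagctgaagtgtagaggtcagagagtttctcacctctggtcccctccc

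The Tek stretch of 250 bases held 2 GGAA matches and the Egfl7 stretch of 249 bases held 3, whereas the Robo4 stretch of 175 bases held 0. Of 32851 mouse promoter stretches cut to the same lengths, 93.4%, 93.3% and 85.9% held at least 1 GGAA. The other motifs searched on both strands were CANNTG (E-box), with 2 matches in Tek, 0 in Egfl7 and 2 in Robo4 (in 66.2%, 66.1% and 54.5% of all stretches), and ACAAT (Sox), with 2, 0 and 2 (27.7%, 27.6% and 21.1%). GATAA (GATA) had 1 match, in Egfl7 (22.5%), while CTTTGA (TCF/LEF) and AACAGGAA (FOX with ETS, which contains the GGAA letters) had 0 in each. In Robo4 an ACAAT match shares bases with a CANNTG match, and in Tek an ACAAT match shares 1 base with a TTCC. A match is a description of letters and no evidence of binding, and the absence of one says nothing of the factor.

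The remaining genes are Pecam1 (chr11:106654217-106750628, minus strand), Icam2 (chr11:106377656-106388075, minus strand, 266.1 kb from Pecam1), Cdh5 (chr8:104101625-104144511, plus strand), Tie1 (chr4:118471191-118490061, minus strand), Esam (chr9:37528078-37538319, plus strand, 113.0 kb from Robo4), Emcn (chr3:137341067-137432185, plus strand) and Angpt1 (chr15:42424723-42676977, minus strand), all protein-coding genes on GRCm38. The library kit did not keep strand, so that reads from overlapping genes on opposite strands cannot be told apart. Agpat2 overlaps the end of Egfl7 on the other strand, Gm29682 overlaps Cdh5 and Gm17473 overlaps Angpt1, both as antisense genes. The protein-coding gene Gm20532 also overlaps Egfl7, on the same strand. Robo3 lies 554 bases beyond Robo4 on the other strand.

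Per transcript length, Egfl7 was by far the most abundant of the genes, at 49.6 to 137 TPM. Pecam1 and Cdh5 reached 22.3 and 20.9 TPM, Tie1, Esam, Tek and Icam2 reached 12.1, 8.63, 6.75 and 6.17 TPM, and Angpt1 reached 3.48 TPM. Robo4 stayed at or below 1.92 TPM and Emcn at or below 0.26 TPM. Ordered by their means, E+F+ IWR-1 was the highest and the E+F- groups were the lowest for every gene but Robo4, for which E+F- IWR-1 was the highest and E+F+ DMSO the lowest. Most neighbours in these orders overlapped. The neighbours without overlap were unsorted IWR-1 above E+F+ DMSO for Cdh5 and Icam2, E+F- IWR-1 above E+F- DMSO and E+F+ IWR-1 above E+F+ DMSO for Robo4, and for Egfl7 all steps but unsorted IWR-1 to unsorted DMSO and E+F- DMSO to E+F- IWR-1.

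**Figure D1:**
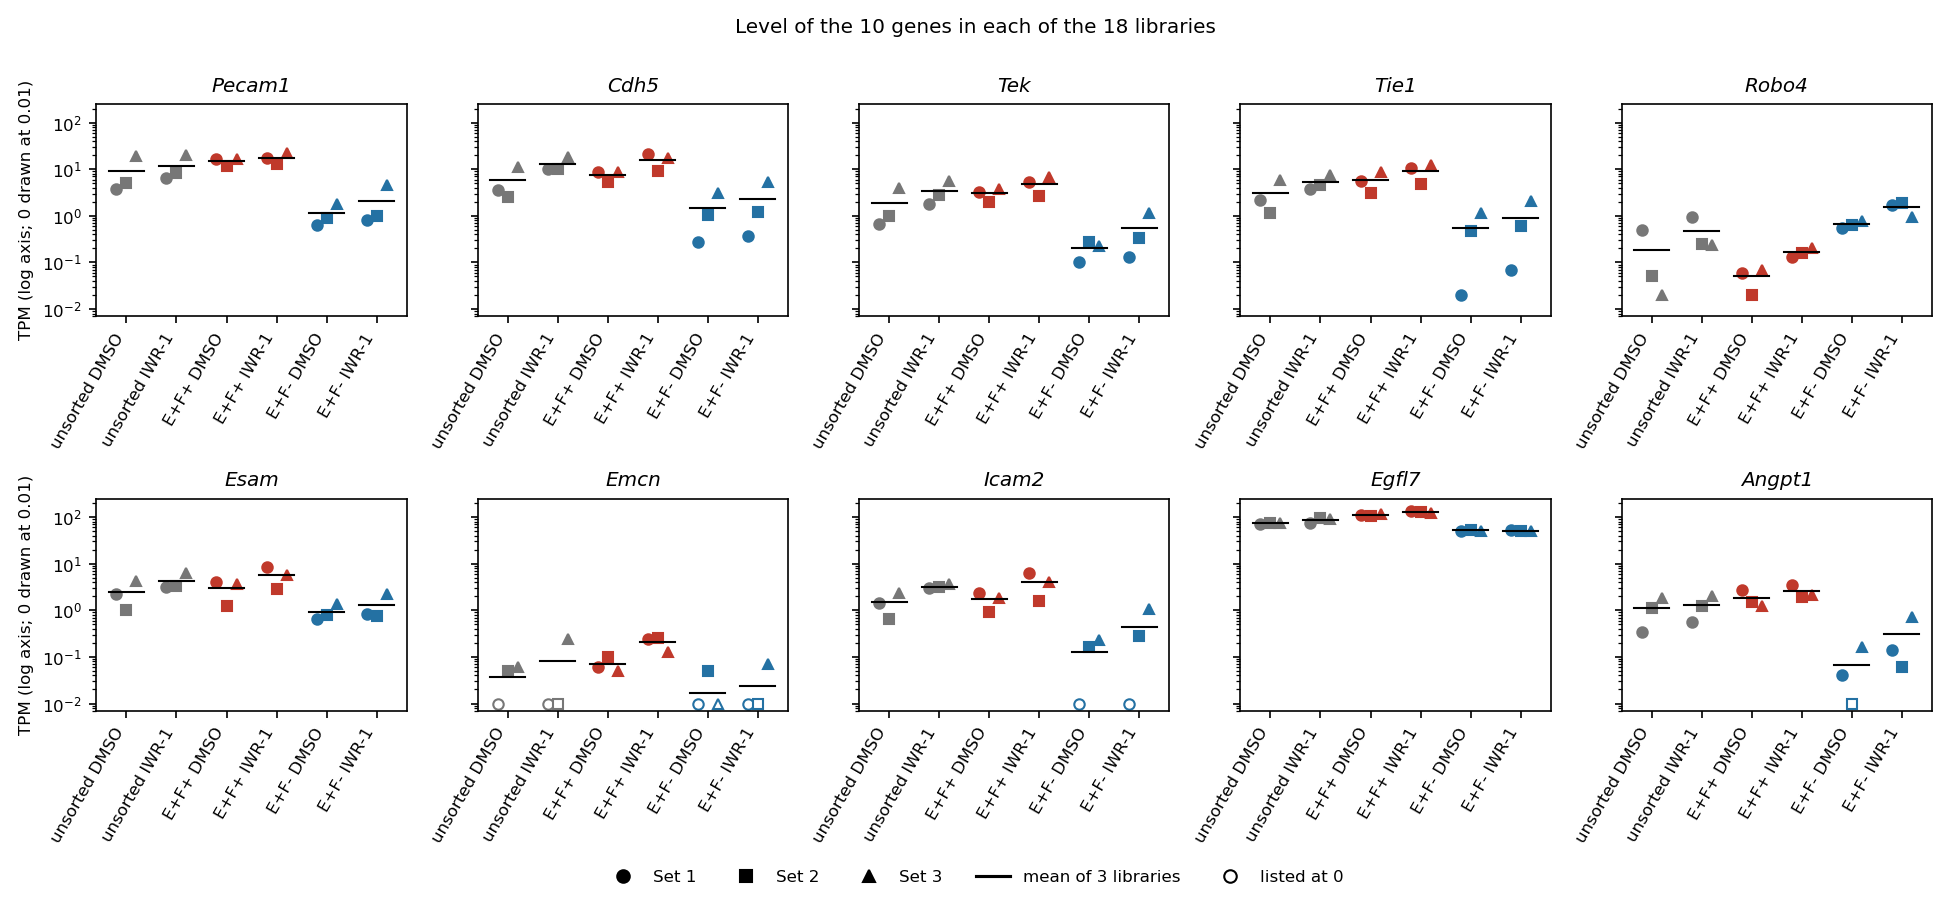
TPM of each gene (log axis) in the 18 libraries, by group, with a symbol for each Set and a bar at the mean of 3 libraries; open symbols at 0.01 are listed at 0. E+F- libraries are lowest for 9 genes by group mean and highest for Robo4, and Egfl7 lies between 49.6 and 137 TPM throughout.

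E+F+ and E+F- cells differ in the Flk-1 gate, and the comparison asks which of these genes separate the populations after 24 h. Under DMSO, 8 of the 9 tested genes were higher in E+F+ and 1, Robo4, was lower, each at an edgeR adjusted p under 0.05. Over all 13826 genes the same test called 26.6% (12.8% higher and 13.8% lower). The libraries of the groups did not overlap for 8 of the 9, as for 42.9% of all genes. The median log2 fold change of the 9 genes was 3.61, against -0.01 for all genes. In these bulk libraries, fewer endothelial cells and less RNA of these genes per cell cannot be told apart.

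Among the junction genes, Pecam1 was at 16.5, 11.8 and 16.8 TPM in E+F+ DMSO (Sets 1, 2 and 3) and at 0.63, 0.91 and 1.83 TPM in E+F- DMSO. The groups did not overlap, and the log2 fold change was 3.91 ± 0.71 (SE, adjusted p = 0.00113), or 15.0-fold. Cdh5 was at 8.82, 5.34 and 8.58 TPM in E+F+ and at 0.28, 1.03 and 3.06 TPM in E+F-. Set 3 was the highest E+F- library and still lay below every E+F+ library, and the log2 fold change was 2.56 ± 0.81 (adjusted p = 0.0294). Icam2, a ligand of leukocyte integrins, was at 2.35, 0.90 and 1.88 TPM in E+F+ and at 0, 0.16 and 0.23 TPM in E+F-. Its E+F- values rest on 6 counts in all, where the 0 of Set 1 allows up to 0.143 CPM (counts scaled to library depth; 3 counts, counting error alone), and the log2 fold change was 3.75 ± 0.97 (adjusted p = 0.0102). Esam was at 4.04, 1.22 and 3.74 TPM in E+F+ and at 0.64, 0.81 and 1.36 TPM in E+F-. Esam was the gene whose groups overlapped, since E+F- Set 3 lay above E+F+ Set 2, and its log2 fold change of 1.81 ± 0.59 (adjusted p = 0.0337) lost its call in both limma fits on log2 TPM (adjusted p = 0.105 and 0.0748).

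The receptors divided. Tek was at 3.30, 1.97 and 3.81 TPM in E+F+ DMSO and at 0.10, 0.28 and 0.23 TPM in E+F- DMSO, a log2 fold change of 4.02 ± 0.81 (adjusted p = 0.00228). Tie1 was at 5.70, 3.14 and 8.61 TPM in E+F+ and at 0.02, 0.47 and 1.13 TPM in E+F-, a log2 fold change of 3.61 ± 0.96 (adjusted p = 0.0118). Both Tie receptors were thus higher in every E+F+ library than in any E+F- library. Robo4 ran the other way, at 0.06, 0.02 and 0.07 TPM in E+F+ and at 0.55, 0.65 and 0.79 TPM in E+F-, a log2 fold change of -3.44 ± 0.85 (adjusted p = 0.00825). These levels are low: the 3 E+F+ libraries held 8 Robo4 counts in all and the 3 E+F- libraries held 89.

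The secreted factors were higher in E+F+ cells. Angpt1 was at 2.69, 1.51 and 1.26 TPM in E+F+ DMSO and at 0.04, 0 and 0.16 TPM in E+F- DMSO, a log2 fold change of 4.99 ± 0.99 (adjusted p = 0.00202) against a group that held 9 counts in all. Its 0 in E+F- Set 2 allows up to 0.113 CPM. Egfl7 was at 109, 104 and 116 TPM in E+F+ and at 50.6, 53.7 and 51.4 TPM in E+F-. The 3 Sets lay close together in each population, and the difference of 1.22 ± 0.13, or 2.32-fold, was the smallest of the 9 in size and had the lowest adjusted p of the 9 (2.56e-05). Agpat2, which overlaps the end of Egfl7 on the other strand, differed by -0.20 ± 0.19 (adjusted p = 0.468).

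**Figure D2:**
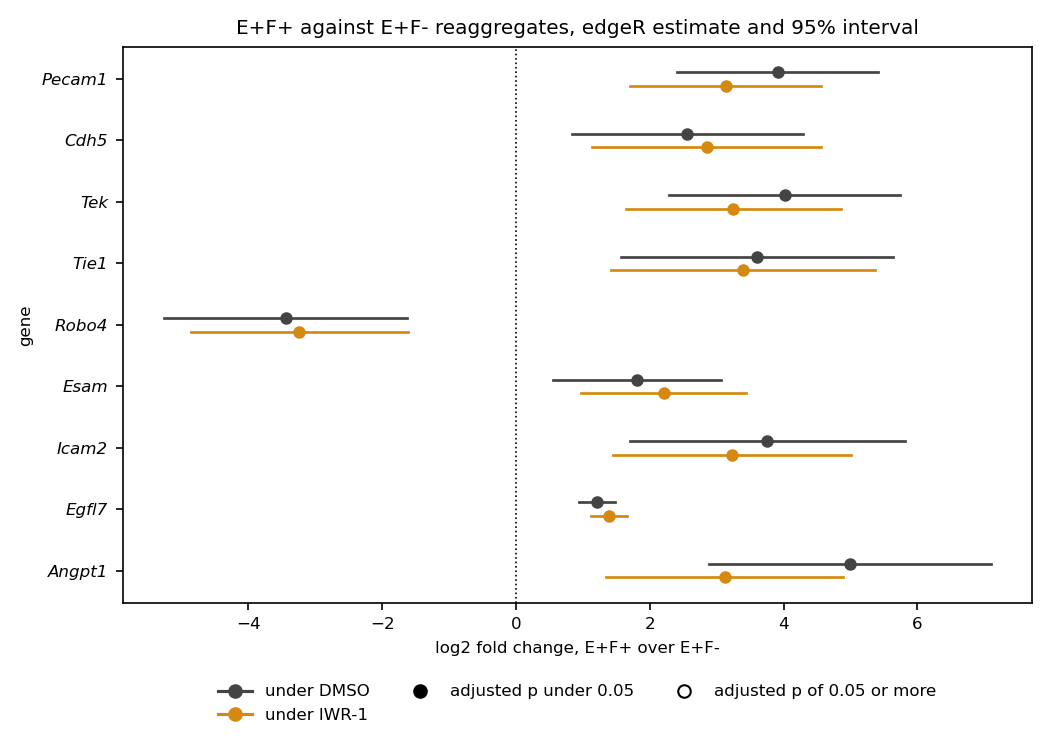
Estimated log2 fold change of E+F+ over E+F- with its 95% interval for the 9 tested genes, under DMSO and under IWR-1; filled points passed an adjusted p of 0.05. All points are filled, 8 genes lie to the right of 0 under both treatments and Robo4 lies to the left at -3.44 and -3.24.

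Under IWR-1 the same 8 genes were higher and Robo4 was lower in E+F+ cells, where the test called 22.5% of all genes (10.4% higher and 12.1% lower). The groups did not overlap for any of the 9, as for 35.9% of all genes, and the median was 3.12 against -0.01 for all genes. The log2 fold change was 3.13 ± 0.67 for Pecam1 (adjusted p = 0.00408), 2.85 ± 0.81 for Cdh5 (0.0191), 3.22 ± 0.84 for Icam2 (0.0124) and 2.20 ± 0.58 for Esam (0.0135). It was 3.25 ± 0.75 for Tek (0.00651), 3.39 ± 0.93 for Tie1 (0.0160), -3.24 ± 0.76 for Robo4 (0.00719), 3.12 ± 0.83 for Angpt1 (0.0143) and 1.40 ± 0.13 for Egfl7 (1.78e-05). Within each Set and each treatment all 9 genes kept these directions, from 0.61 for Esam in DMSO Set 2 to 6.65 for Tie1 in DMSO Set 1 among the higher genes, on log2 CPM. That Tie1 value rests on 1 count in E+F- DMSO Set 1, so that its size depends on the prior count. Icam2 lost its call where the fit held these groups alone (adjusted p = 0.0658).

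The Set 3 libraries carried the highest E+F- values of most of these genes, and were left out in turn. Without Set 3 in all groups, 8 genes were called under DMSO and 9 under IWR-1, and without the E+F- Set 3 library alone 9 were called under both. Fewer calls remained in number without the other Sets: 5 were called under DMSO and 2 under IWR-1 without Set 1, and 4 and 2 without Set 2, while 5 were called under IWR-1 without the E+F- Set 2 library. The calls among all genes fell as well, under DMSO from 3681 to 1666 without Set 1 and 1429 without Set 2, and under IWR-1 from 3111 to 1407 and 1111, and to 2412 without the E+F- Set 2 library. Pecam1, Tek, Angpt1 and Egfl7 kept their DMSO call whichever library or Set was left out, with adjusted p of at most 0.0367 for Tek, 0.0355 for Pecam1, 0.0423 for Angpt1 and 0.00485 for Egfl7. Esam lost its DMSO call in 7 of 9 such fits and Cdh5 in 6 of 9, Tie1 and Icam2 without Set 1 or Set 2, and Robo4 without Set 2 (adjusted p = 0.110). Under IWR-1, Egfl7 alone kept its call in each of these fits (adjusted p of at most 0.00646).

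Markers of other cell types moved with the same comparison, in which 12.8% of all genes were called higher and 13.8% lower under DMSO. Of 13 erythroid markers, 9 were higher in E+F+ DMSO and 0 lower, led by Gfi1b (5.52, adjusted p = 0.000733) and Gata1 (5.74, 0.000799), transcription factors of red cell formation, with a median of 5.52. Their summed level was 1689, 826 and 4631 TPM in E+F+ DMSO and 15.7, 33.6 and 180 TPM in E+F- DMSO. The summed level of the 9 genes other than Egfl7 was 43.6, 26.0 and 44.8 TPM against 2.26, 4.36 and 8.79 TPM in the same libraries. Of 6 tested megakaryocyte and platelet markers 1 was higher, Itga2b (3.37, adjusted p = 0.00170), the list summed to 26.6 to 54.2 TPM in E+F+ DMSO against 3.17 to 10.2 TPM in E+F- DMSO, and Ppbp and Gp6 were at 0 in every E+F+ library. White cell markers split (2 higher and 1 lower of 6, 9.91 to 20.5 TPM against 10.0 to 18.3 TPM). The part of these blood cell types in the levels of the 10 genes was not tested.

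**Figure D3:**
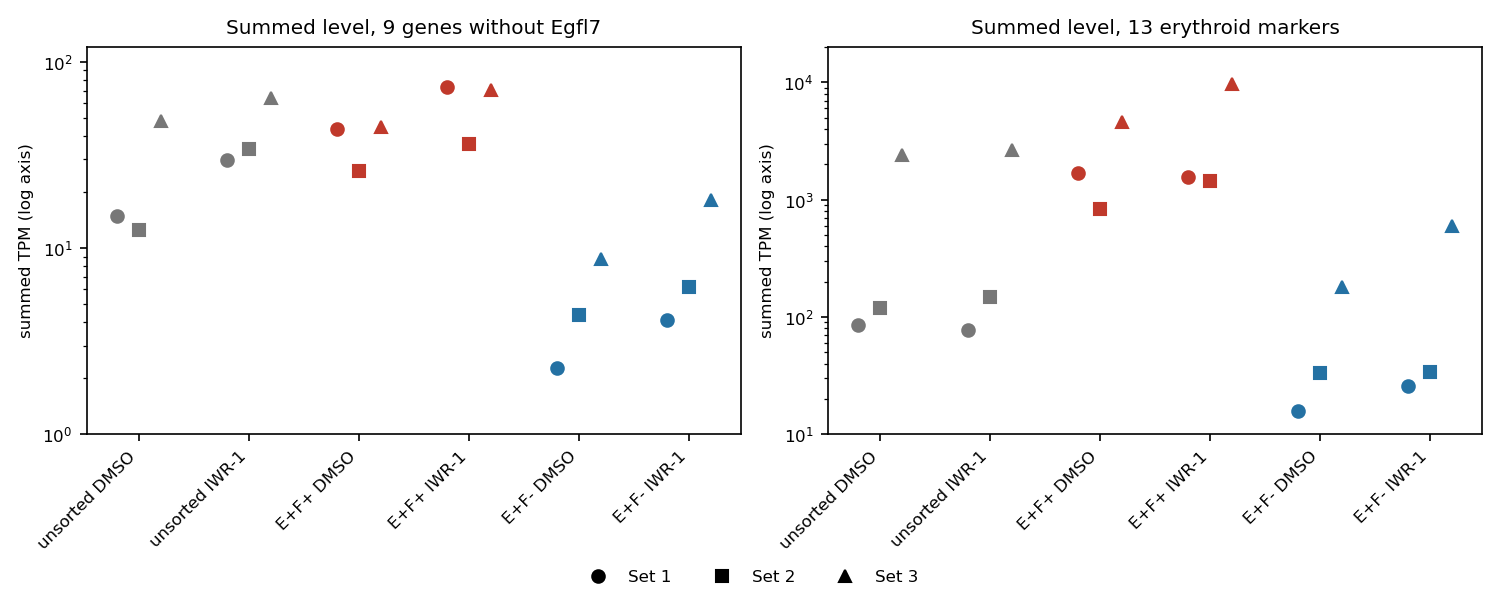
Summed TPM (log axes) of the 9 genes other than Egfl7 on the left and of 13 erythroid markers on the right, in each library by group, with a symbol for each Set. Within each Set and treatment both sums are lowest in E+F- cells, but E+F- IWR-1 Set 3 (18.1 and 597 TPM) lies above unsorted DMSO Sets 1 and 2 in both. Unsorted Set 3 stands above unsorted Sets 1 and 2 in both (48.4 against 14.8 and 12.5 TPM, and 2383 against 85.3 and 119 TPM, under DMSO).

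Of the further lists under DMSO, 11 of 15 tested pluripotent cell markers were lower in E+F+ and 0 higher (85.9 to 133 TPM in all, against 271 to 1009 TPM), and all 10 Wnt feedback genes were lower. Cardiac markers were higher for 3 and lower for 5 of 14, mesenchymal and mural markers for 2 and 1 of 13, and endoderm markers for 3 and 2 of 13. Under IWR-1 the counts were 9 higher and 0 lower for erythroid, 3 and 0 for megakaryocyte, 3 and 2 for white cell, 0 and 11 for pluripotent, 4 and 3 for cardiac, 3 and 2 for mesenchymal, 3 and 3 for endoderm markers, and 0 and 6 for Wnt feedback genes. Over all genes the test called 12.8% higher and 13.8% lower under DMSO, and 10.4% and 12.1% under IWR-1. The share of these cell types in the result was not tested.

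The genes that work beside the 10 did not all follow them. For comparison, the test called 12.8% of all genes higher and 13.8% lower under DMSO, and 10.4% and 12.1% under IWR-1. Of 22 tested partners of the angiopoietin and Slit pathways, 5 were higher and 2 lower in E+F+ DMSO, with a median of 0.13. Grb14, an adaptor that binds Tie2, was higher by 3.60 ± 0.47 (adjusted p = 0.000104), and Svep1, a large extracellular protein, by 3.59 ± 0.57 (0.000432), whereas Robo3, another Roundabout receptor, was lower (-3.85 ± 0.92, 0.00682) and the adaptor Grb2 differed by 0.40 ± 0.11 (0.0128). Under IWR-1, 6 were higher and 4 lower. Svep1 was higher (3.39), and Robo3 (-6.07), the Slit family member Slit1 (-4.00) and Robo1 (-2.07) were lower, each at an adjusted p of at most 0.00290. Of 33 junction partners, 5 were higher and 10 lower under DMSO, and 4 and 10 under IWR-1. Cgnl1, a tight junction scaffold, was higher by 1.90 ± 0.22 (adjusted p = 4.4e-05), and the connexin Gja1 (-1.05 ± 0.16), E-cadherin Cdh1 (-4.95 ± 0.83) and N-cadherin Cdh2 (-2.28 ± 0.46) were lower under DMSO. VE-cadherin was thus higher in the cells in which the epithelial and neural cadherins were lower.

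Of 31 tested endothelial surface and secreted genes outside the 10, 6 were higher and 4 lower in E+F+ DMSO, and 11 and 3 under IWR-1, with medians of 0.78 and 1.06. The shares of all genes were 12.8% higher and 13.8% lower under DMSO, and 10.4% and 12.1% under IWR-1. The endothelin-converting enzyme Ece1 was higher (2.12, adjusted p = 0.000251), while the co-receptor Nrp2 (-3.22, 6.53e-05), the apelin receptor Aplnr (-2.13, 0.00277) and Icam1 (-2.76, 0.00432) were lower under DMSO. Under IWR-1 Ece1 (1.88), the receptor Calcrl (1.70) and Acvrl1, a receptor that acts with Endoglin (3.66), were higher and Aplnr was lower (-2.67), each at an adjusted p of at most 0.00214. The endothelial markers Sele, Gpihbp1 and Tm4sf1 were at 0 in all E+F+ DMSO and E+F- DMSO libraries. Of 19 tested endothelial transcription factors, 9 were higher and 4 lower under DMSO, and 11 and 3 under IWR-1. Ets1 (1.39), Hhex (1.89), Gata2 (1.63) and Tal1 (2.81) led the higher ones under DMSO (adjusted p of at most 0.00303). Under IWR-1 Lmo2 (2.58) and Gata2 (2.61) were higher and Foxc1 (-4.56) and Foxc2 (-4.39) were lower. Etv2, the ETS factor at the start of the endothelial programme, was at 2.32 to 2.68 TPM in E+F+ DMSO and 28.1 to 85.9 TPM in E+F- DMSO (log2 fold change -4.21, adjusted p = 0.00458), the same direction as Robo4 (Etv2 was named after its value was seen).

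The unsorted cells were compared with each sorted population, and those comparisons share the unsorted libraries. Unsorted Set 3 stood above Sets 1 and 2 for most of the genes. Pecam1 was at 3.83, 5.01 and 18.8 TPM in unsorted DMSO and at 6.46, 8.25 and 20.1 TPM in unsorted IWR-1. Tie1 was at 2.19, 1.12 and 5.92 TPM and at 3.70, 4.48 and 7.64 TPM in the same libraries. Robo4 had its highest unsorted values in Set 1 instead (0.49, 0.05 and 0.02 TPM under DMSO).

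Against unsorted cells, Egfl7 alone was called in E+F+ cells under both treatments. Egfl7 was at 71.5, 76.0 and 75.7 TPM in unsorted DMSO, below all E+F+ DMSO libraries, and its log2 fold change was 0.64 ± 0.12 (adjusted p = 0.00765), where 10.6% of all genes were called (4.7% higher). Under IWR-1 it was at 73.2, 94.5 and 92.6 TPM in unsorted cells, and the E+F+ libraries held 137, 130 and 121 TPM, so that the groups did not overlap and the log2 fold change was 0.63 ± 0.12 (adjusted p = 0.00718), where 10% were called (3.64% higher). The other 8 genes missed the threshold under both treatments, with wide intervals: the log2 fold change of Pecam1 under DMSO was 0.83, with a 95% interval from -0.47 to 2.14. With the Set as a block, 2 of the 9 genes were called under DMSO, and 2806 of all genes in place of 1459. Egfl7 lost its call without Set 1 (adjusted p = 0.0713 under DMSO and 0.122 under IWR-1) or Set 2 (0.0923 and 0.0818), and under IWR-1 also where the fit held these groups alone (0.0522), while 2 of the 9 genes were called without Set 3 under each treatment. The test called 1547 and 1501 of all genes without Set 3, and between 38 and 104 without Set 1 or Set 2.

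Of the 9 genes, 5 were called lower in E+F- than in unsorted cells under DMSO, where 9.48% of all genes were called (4.92% lower). The log2 fold change was -3.07 ± 0.69 for Pecam1 (adjusted p = 0.0137), -3.17 ± 0.80 for Tek (0.0234), -3.43 ± 0.97 for Icam2 (0.0382), -4.17 ± 0.98 for Angpt1 (0.0168) and -0.57 ± 0.13 for Egfl7 (0.0117). Robo4 differed by 1.79 ± 0.75 (adjusted p = 0.139), and its 3 E+F- values lay above all 3 unsorted values. Tek, Icam2 and Angpt1 missed the threshold in limma on log2(TPM + 1) (adjusted p = 0.109, 0.0658 and 0.0666) and where the fit held these groups alone (0.0607, 0.0644 and 0.0629), which left Pecam1 and Egfl7. Leaving out a library or a Set changed these calls, while the calls among all genes went from 1311 to between 1 and 1500. Of the 9 genes, 1 was called lower when unsorted DMSO Set 3 was left out, and likewise for E+F- DMSO Set 1 and for E+F- DMSO Set 2. There were 2 lower without unsorted DMSO Set 2 and 3 lower without E+F- DMSO Set 3. Without Set 1, 1 gene was called lower and Robo4 was called higher (adjusted p = 0.0263), as it was without unsorted DMSO Set 1 (0.00959). Without Set 3, 3 were called lower, among them Cdh5 (0.0497), which had missed the threshold with all libraries, and without Set 2 the test called 0 of the 9 and 1 gene of all. Icam2 lost its call in each of the 9 fits that left out a library or a Set, with a log2 fold change between -4.04 and -2.90.

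Under IWR-1, Egfl7 alone was called lower in E+F- than in unsorted cells (-0.77 ± 0.13, adjusted p = 0.0125), where 2.66% of all genes were called (1.48% lower). The other 8 genes missed the threshold (edgeR adjusted p from 0.0580 for Pecam1 to 0.158 for Angpt1). Estimates of Pecam1, Cdh5, Tek, Tie1, Esam, Icam2 and Angpt1 lay between -2.85 (Icam2) and -1.71 (Esam), and that of Robo4 was 1.82. With the Set as a block the test called 1717 genes of all in place of 368, and 8 of the 9 among them, 7 lower and Robo4 higher (1.96, adjusted p = 0.0467), with Pecam1 at -2.55 (0.00212) and Tek at -2.78 (0.00600). Without E+F- IWR-1 Set 3, in which Pecam1 was at 4.47 TPM against 0.83 and 1.01 TPM, 8 genes were called lower without any block, and 1341 of all genes were called. The count was 7 without Set 3 (1082 of all genes) and 3 without unsorted IWR-1 Set 1 (1079). It was 0 without Set 2 as a whole, without its unsorted library, or without the E+F- library of Set 1 or of Set 2, fits that called between 0 and 13 genes of all.

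IWR-1 was set against DMSO within each population to ask whether a Wnt inhibitor moves these genes. None passed the test: 0 of 9 in E+F+, E+F- and unsorted cells with edgeR. The test called 0%, 0.521% and 0.094% of all genes, and 0, 4 and 1 of 10 Wnt feedback genes lower. A fall of Wnt feedback under IWR-1 was thus not called for any gene of that list in E+F+ cells. At an unadjusted p under 0.05 there were 0, 1 (Angpt1 in E+F-) and 0 of the 9, and 695, 1082 and 1201 of all genes. DESeq2 and limma also called 0 of the 9. The estimates were nevertheless all above 0, with medians of 0.66 in E+F+, 0.97 in E+F- and 0.81 in unsorted cells, against 0.01, 0.01 and 0.02 for all genes. Of Egfl7 in E+F- cells this sign turned in the fits on log2 TPM (-0.03).

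In E+F+ cells, Cdh5 was at 8.82, 5.34 and 8.58 TPM under DMSO and at 20.9, 9.20 and 17.2 TPM under IWR-1, groups that did not overlap (log2 fold change 1.03 ± 0.75). Icam2 was at 2.35, 0.90 and 1.88 TPM under DMSO and at 6.17, 1.59 and 4.12 TPM under IWR-1 (1.19 ± 0.74), and the groups overlapped through Set 2. Robo4 was at 0.13, 0.16 and 0.20 TPM under IWR-1, above all its DMSO values, on 23 counts against 8 (1.53 ± 0.91). Egfl7 was at 109, 104 and 116 TPM under DMSO and at 137, 130 and 121 TPM under IWR-1 (0.25 ± 0.12, 95% interval -0.02 to 0.51). Emcn, which was not tested, was at 0.06, 0.10 and 0.05 TPM under DMSO and at 0.24, 0.26 and 0.13 TPM under IWR-1, on 4 and 12 counts in all. Cdh5, Robo4, Egfl7 and Emcn were thus the genes with every IWR-1 library above every DMSO library, a pattern that 7.02% of all tested genes showed in E+F+ cells. Pecam1 differed least (0.20 ± 0.61), and its sign turned without E+F+ IWR-1 Set 3 (-0.01).

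In E+F- cells, Angpt1 had the highest estimate, 2.33 ± 1.01 (95% interval 0.18 to 4.49, adjusted p = 0.567), from 0.04, 0 and 0.16 TPM under DMSO to 0.14, 0.06 and 0.73 TPM under IWR-1. Robo4 went from 0.55, 0.65 and 0.79 TPM to 1.72, 1.92 and 0.94 TPM (1.33 ± 0.68), the single gene of the 10 without overlap, as for 2.77% of all tested genes. Its neighbour Robo3 went from 0.29, 0.84 and 0.92 TPM to 5.25, 4.03 and 0.84 TPM (2.45 ± 0.74, adjusted p = 0.236), highest in the same libraries, Sets 1 and 2. E+F- IWR-1 Set 3 instead held the highest Pecam1, Cdh5, Tek, Tie1, Esam, Icam2 and Angpt1 of that group. Without that library the estimates were 0.88 for Angpt1, 0.34 for Tek and 0.27 for Icam2 (1.43 and 1.72 with it for Tek and Icam2), and -0.08 for Pecam1, -0.65 for Cdh5, -0.45 for Tie1 and -0.07 for Esam. That fit kept E+F- DMSO Set 3, in which Cdh5 was at 3.06 TPM against 0.28 and 1.03 TPM in Sets 1 and 2. Without Set 3 in all groups, the estimates of Pecam1, Cdh5, Tie1 and Esam stayed above 0. Their differences in the Set 1 and Set 2 pairs ran from 0.03 (Esam, Set 2) to 0.93 (Tie1, Set 1) on log2 CPM. Without E+F- DMSO Set 3 the estimate of Angpt1 was 3.88. Within E+F- IWR-1 the summed erythroid markers were also highest in Set 3, at 597 TPM against 26.0 and 33.9 TPM in Sets 1 and 2. Their part in the values of the 10 genes was not tested.

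In unsorted cells, Icam2 was the gene without overlap, at 1.44, 0.65 and 2.35 TPM under DMSO and 2.96, 3.12 and 3.58 TPM under IWR-1 (1.15, as for 4.14% of all tested genes). Cdh5 was at 3.61, 2.50 and 11.3 TPM under DMSO and at 10.1, 10.3 and 18.04 TPM under IWR-1 (1.16), where Set 3 under DMSO lay above Sets 1 and 2 under IWR-1. Tek was at 0.66, 0.98 and 3.87 TPM and at 1.79, 2.86 and 5.59 TPM (0.92), with the same overlap. The estimates for Pecam1 (0.35) and Angpt1 (0.24) turned without unsorted IWR-1 Set 3 (-0.28 and -0.23) or unsorted DMSO Set 1 (-0.02 and -0.19).

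**Figure D4:**
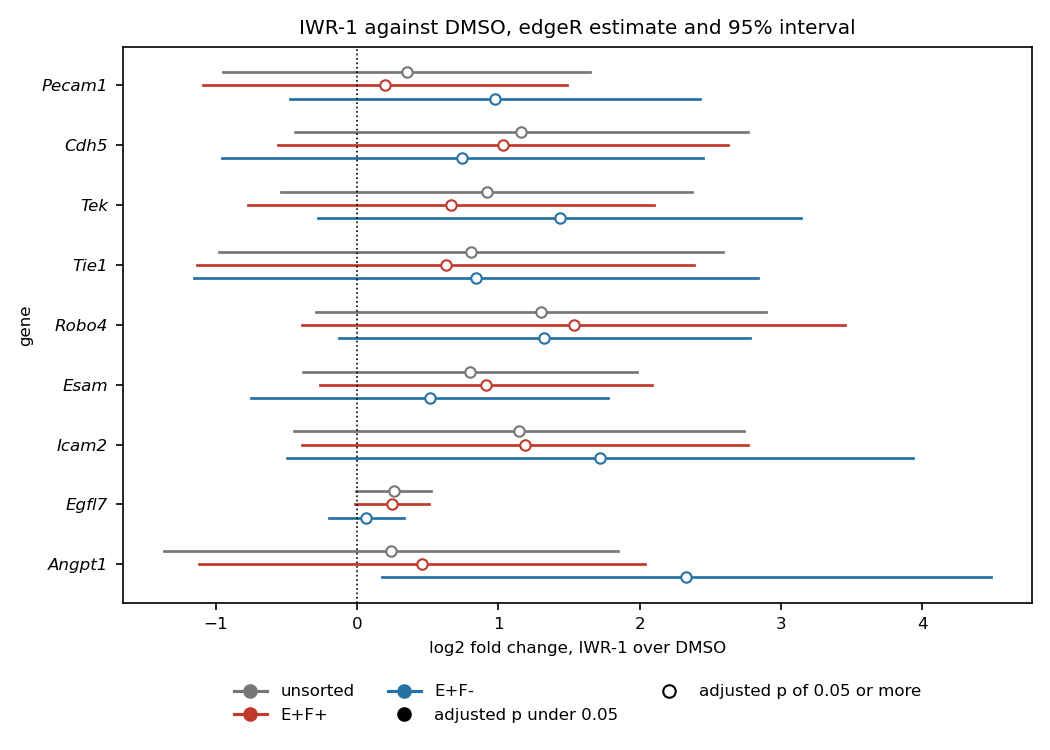
Estimated log2 fold change of IWR-1 over DMSO with its 95% interval for the 9 tested genes in the 3 populations; open points did not pass an adjusted p of 0.05. All points are open and lie above 0, and all intervals reach below 0 but that of Angpt1 in E+F- cells (0.18 to 4.49).

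Between treatments, libraries with the same Set number deviated together in all 3 populations, so the values were also set against each other within Sets. In E+F- cells Sets 1 and 2 barely passed their highest r with another Set (0.345 against 0.327, and 0.466 against 0.403). On log2 CPM, the IWR-1 library was the higher one in 80 of 81 cases, 9 genes in each of 9 library pairs. The exception was Icam2 in E+F- Set 1, listed at 0 in both libraries. These cases are not independent, since the genes share the 9 pairs and most of them vary together. Of the 9 genes, 8 were higher in all 9 pairs, as were 4.29% of all genes tested. On TPM the count was 77 of 81, and 6 of the 9 genes were higher in all 9 pairs, as were 2.76% of all genes. The TPM exceptions were Esam in 1 pair, Icam2 in 1 and Egfl7 in 2, E+F- Sets 2 and 3. With the Set as a block the edgeR test again called 0 of the 9 in each population. The difference between the IWR-1 effects of any pair of populations passed for 0 of 9 genes, with unadjusted p between 0.118 and 0.986, and 0.0289%, 0% and 0% of all genes were called.

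**Figure D5:**
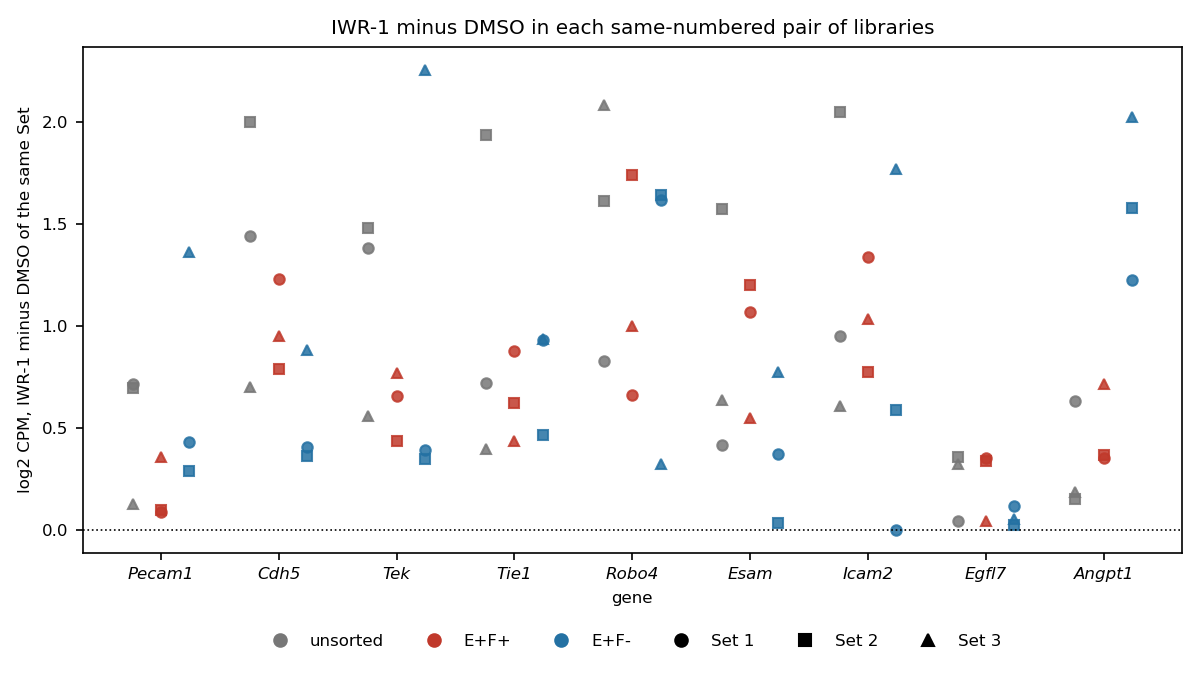
IWR-1 minus DMSO of the same Set on log2 CPM for each gene, coloured by population with a symbol for each Set. Of 81 points 80 lie above 0, and Icam2 of E+F- Set 1 lies at 0.

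Over the 18 libraries, the levels of the genes other than Robo4 varied together. On log2 CPM, Pearson's r lay between 0.74 and 0.98 for the 28 pairs among these 8 genes and between -0.77 and -0.49 for Robo4 with each of them. These values describe libraries that share populations, Sets and depth. Of all other tested genes, Fli1, an ETS factor of endothelium and megakaryocytes, was most like Pecam1 (r = 0.98, n = 18 libraries), Oit3 most like Tek (0.98) and Icam2 (0.96), Samsn1 most like Cdh5 (0.97), Hapln1 most like Tie1 (0.97), Eltd1, an adhesion receptor of endothelium, most like Esam (0.95), Asic4 most like Egfl7 (0.98) and Prc1 most like Angpt1 (0.96). Robo4 was most like Lhx1 (0.95), a factor of early mesoderm, followed by Kcnc1 and Dapk1 (0.94 each).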

How the data were processed

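RNA was made into unstranded TruSeq libraries and sequenced as single 51-base reads. Per the labels and the submitters' processing notes, the authors called bases with CASAVA 1.8.2, aligned reads with Bowtie 0.12.9 (28-base seed, reads with over 200 alignments dropped) to mm10 transcripts of 19084 RefSeq genes, and quantified them with RSEM 1.2.3. The deposited tables hold expected counts, which the authors' software estimates and which need not be whole, and TPM, which the authors scaled to the same total in each library and which keeps no depth. RSEM shares reads between similar genes, so that a count can be split among them. Of the expected counts, 13 rows without a gene symbol, holding 1.32% to 3.32% of the counts, have no TPM. They were tested with the other genes, so that counts on TPM cover 13813 of the 13826 genes.

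Expected counts were rounded. In R 4.3.3, edgeR 4.0.16 served for TMM scaling (factors 0.949 to 1.08), filterByExpr by group, and the quasi-likelihood test on all 18 libraries with 1 coefficient per group and no replicate term. P-values were adjusted by Benjamini-Hochberg over the 13826 genes tested and called under 0.05. Log2 CPM, counts scaled to depth, used a prior count of 2. DESeq2 1.42.0, limma 3.58.1 on log2(TPM + 1) and log2(TPM + 0.1), DESeq2's size factors, no filter, the compared groups alone, the Set as a block, and leaving out each library or Set were alternatives, and counting same-numbered pairs on TPM was added after seeing the data. A 0 allows up to 3 counts at 95% confidence, for counting error alone. No library pair was a duplicate (chi-square per degree of freedom 15.6 to 84.2). Same-numbered libraries deviated together (r over 0.1 for each Set) between treatments (0.34 to 0.75) and between populations under IWR-1 (0.19 to 0.53) and for E+F+ with unsorted under DMSO (0.10 to 0.37). Under DMSO, E+F+ with E+F- fell just short of this cut in Set 1 (0.0977, with 0.235 and 0.221 in Sets 2 and 3). Each of these still lay above its highest r with another Set (-0.025, 0.089 and -0.138). E+F- with unsorted under DMSO fell short in Set 1 (-0.0082, against 0.367 with another Set). In E+F- between treatments, Sets 1 and 2 barely passed their highest r with another Set (0.345 against 0.327, and 0.466 against 0.403).

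Gene positions are from GENCODE M21. The 10 genes are named in each comparison. From each list at most 4 called genes with the smallest adjusted p are named, and for each gene up to 3 with the highest r. The genes and lists were chosen with earlier results of these data known. The edgeR fit was tested on simulated counts.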

Additional observations from a re-analysis of the deposited data

How the results depend on the processing

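In E+F+ against E+F- cells, between 4 and 9 of the 9 genes were called under DMSO and between 2 and 9 under IWR-1 when a library or a Set was left out, and 8 or 9 in every other fit. For E+F+ against unsorted cells these ranges were 0 to 2 under each treatment, for E+F- against unsorted cells 0 to 5 under DMSO and 0 to 8 under IWR-1. With the groups compared alone, the counts were 2 for E+F- against unsorted under DMSO (587 of all genes, against 1311), 0 under IWR-1 (0 of all genes, against 368), and 0 for E+F+ against unsorted under IWR-1 (826, against 1389). For E+F- against unsorted, limma on log2(TPM + 1) called 2 under DMSO and 5 (1 higher and 4 lower) under IWR-1 (1261 and 577 of all genes). Limma on log2(TPM + 0.1) called 6 (1 higher and 5 lower) under DMSO and 5 lower under IWR-1 (1237 and 551). The gene called higher was Robo4 (adjusted p = 0.0333 under IWR-1 and 0.0490 under DMSO). DESeq2 called 6 under IWR-1 (1032 of all genes). With the Set as a block, the counts were 2 for E+F+ against unsorted under DMSO (2806 of all genes, against 1459), 9 (1 higher and 8 lower) for E+F- against unsorted under DMSO (2829, against 1311), where the Sets were not shown to pair, and 8 under IWR-1 (1717, against 368). The block changed no other count, and both E+F+ against E+F- comparisons stayed at 9. In the 3 IWR-1 against DMSO comparisons and the 3 differences between them, the count was 0 under every alternative. The cause of these changes was not tested.

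Of the IWR-1 estimates, Egfl7 in E+F- turned to -0.026 and -0.027 in the limma fits with pseudocounts of 1 and 0.1. When a library or a Set was left out, Pecam1 in E+F+ ranged from -0.012 to 0.36. In E+F- the ranges were -0.084 to 1.41 for Pecam1, -0.65 to 1.75 for Cdh5, -0.45 to 1.797 for Tie1 and -0.070 to 0.79 for Esam. In unsorted cells they were -0.28 to 1.34 for Pecam1 and -0.23 to 0.76 for Angpt1. A fit without a library leaves 2 in its group, and their spread is taken from all groups. Depth limits Robo4, Icam2 and Angpt1 in the group where each is lowest (8, 6 and 9 counts in 3 libraries) and Emcn throughout (0 to 5 counts a library). Counts were also low in E+F- Set 1 for Tie1 (1 under DMSO and 4 under IWR-1) and Tek (5 and 8).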
